A study of Mus musculus with 6 samples.

Results

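Expression of the Cxcl12 chemokine axis was examined in kidneys, each taken whole, from E13.5 mouse embryos. The 4 genes were the ligand Cxcl12, its signalling receptor Cxcr4, its scavenging receptor Ackr3 and the related ligand Cxcl14. They were chosen by gene name from a deposited table of 22394 genes, and all 4 were found and passed the filter on low values. Mutant embryos carried Foxd1Cre with one floxed and one null allele of Ptch1 (3 libraries). Control littermates carried one floxed and one wild-type allele of Ptch1 (3 libraries), so a floxed allele was common to both groups. Foxd1 marks the progenitors of the renal stroma, where Cre recombinase is therefore expected to act, and Ptch1 encodes the Hedgehog receptor that holds the pathway off in the absence of ligand. The comparison asks how these genes differ when that brake is removed in the Foxd1 lineage. Cre itself, and a null Ptch1 allele outside the lineage as well as within it, were present in mutants alone, and neither can be told apart from loss of Ptch1 in the lineage.

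Chemokines are small secreted proteins that guide migrating cells along gradients by binding receptors that span the membrane several times. Cxcl12 binds Cxcr4, which signals through inhibitory G proteins, and Ackr3, which recruits arrestins and takes up Cxcl12 from the surroundings without classical G protein signalling. In the developing kidney, Cxcl12 is known from stromal cells and Cxcr4 from endothelial and other cells, and loss of either disturbs the formation of the glomerular vessels. Cxcl14 is a related chemokine whose receptor is less well established.

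The libraries held 13261588 to 47847925 reads in the mutants and 21644399 to 25416896 in the controls. Ptch1 averaged 29.7 ± 6.17 FPKM in mutants and 7.92 ± 0.331 FPKM in controls (SD, n = 3 each; FPKM are reads scaled to gene length and library depth). Ptch1 is itself transcribed in response to Hedgehog signalling, so this does not check its deletion. The nephron progenitor markers of the kidney were present in each library, at a summed 559 to 594 FPKM in mutants and 569 to 726 FPKM in controls, with none of the 14 at 0. Control 2 stood apart from the other 5 libraries, with a score of 75.8 along the main axis of variation (39.4% of the variance), against -24.6 to 8.49. Mitochondrial genes took 0.367% of the reads of control 2, against 1.21% to 1.92% in mutants and 1.53% to 2.12% in controls 1 and 3. The Y-linked gene Ddx3y was at 1525 to 1774 normalized counts in the mutants and 1948 in control 2, against 1.94 to 6.55 in controls 1 and 3, so sex was not balanced between the groups. Mutant 3 also held 2620 normalized counts of Xist, the RNA of the inactive X chromosome, against 43.4 and 87.3 in mutants 1 and 2; its part in the results was not tested. Because control 2 was the lowest of the 6 libraries for 3 of the 4 genes, as it was for 28% of all genes tested, fold changes, ratios and list counts are also given without it. In those values every mutant held Ddx3y and controls 1 and 3 held almost none, so genotype and sex cannot be told apart.

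The ligand Cxcl12 (ENSMUSG00000061353.11) lies on chromosome 6 from 117168535 to 117181367 on the plus strand (GRCm38, GENCODE M21). It was the most abundant of the 4 genes in all 6 libraries. Cxcl12 was at 74.4, 133 and 138 FPKM in mutants 1 to 3, against 62.6, 32.1 and 84.7 FPKM in controls 1 to 3. Mutants 2 and 3 lay above every control, while mutant 1 lay below control 3, so the groups overlapped. The mean was 115 ± 35.4 FPKM in mutants and 59.8 ± 26.4 FPKM in controls (SD, n = 3 each), a 1.93-fold difference. Over all genes, limma (a linear model with spread shared across genes) gave Cxcl12 a log2 fold change of 1.00 (SE 0.37, 95% confidence interval 0.17 to 1.84, adjusted p = 0.456), which did not pass. Without control 2 the control mean was 73.7 FPKM and the difference 1.56-fold, with a log2 fold change of 0.61 and a limma adjusted p of 0.504. Depth does not limit this value, since Cxcl12 took 9184 to 37083 reads in the mutants and 4533 to 11712 reads in the controls. Libraries also differed within each group, with an SD of 30.8% of the mean in mutants and 44.1% in controls. The highest library, mutant 3, held 4.29 times the FPKM of the lowest, control 2, a range that includes the difference between the groups.

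The scavenging receptor Ackr3 (ENSMUSG00000044337.5; chromosome 1, 90203980 to 90216751, plus strand) followed the same order of libraries as Cxcl12 at the extremes, highest in mutant 3 and lowest in control 2. Ackr3 was at 31.9, 37.0 and 43.8 FPKM in mutants 1 to 3, against 30.8, 18.4 and 32.8 FPKM in controls 1 to 3. Mutant 1 lay between controls 1 and 3, and the other mutants lay above every control. The mean was 37.6 ± 5.96 FPKM in mutants and 27.3 ± 7.80 FPKM in controls (SD, n = 3 each), with a log2 fold change of 0.49 (SE 0.23, 95% confidence interval -0.025 to 1.01, limma adjusted p = 0.535). Without control 2 the log2 fold change of Ackr3 was 0.23 (limma adjusted p = 0.708).

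The signalling receptor Cxcr4 (ENSMUSG00000045382.6; chromosome 1, 128588199 to 128592293, minus strand) differed little between the genotypes once control 2 was set aside. Cxcr4 was at 38.7, 33.4 and 32.2 FPKM in mutants 1 to 3, against 37.1, 19.9 and 32.6 FPKM in controls 1 to 3. The mutants lay within the range of controls 1 and 3 or just outside it, and control 2 alone was low. The mean was 34.8 ± 3.46 FPKM in mutants and 29.9 ± 8.93 FPKM in controls (SD, n = 3 each), with a log2 fold change of 0.26 (SE 0.22, 95% confidence interval -0.24 to 0.77, limma adjusted p = 0.664). Without control 2 the log2 fold change of Cxcr4 was -0.0063 with a 95% confidence interval of -0.31 to 0.30 (limma adjusted p = 0.994). A change of more than 0.31 in either direction on the log2 scale lay outside that interval. The interval covers genotype and sex together, since the remaining controls held almost no Ddx3y and every mutant held it.

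Cxcl14 (ENSMUSG00000021508.11; chromosome 13, 56288643 to 56296551, minus strand) was the least abundant of the 4 genes in all 6 libraries and did not share their pattern. Cxcl14 was at 19.3, 12.8 and 13.8 FPKM in mutants 1 to 3, against 14.2, 13.4 and 8.40 FPKM in controls 1 to 3. Mutant 1 was the highest library and control 3 the lowest, while control 2 stood at 1.19 times the mean of the other controls. The mean was 15.3 ± 3.51 FPKM in mutants and 12.0 ± 3.16 FPKM in controls (SD, n = 3 each), with a log2 fold change of 0.36 (SE 0.24, 95% confidence interval -0.19 to 0.91, limma adjusted p = 0.616). Its 312 to 1207 reads in the mutants and 377 to 615 in the controls made it the most thinly read of the 4. Without control 2 the log2 fold change of Cxcl14 was 0.46 (limma adjusted p = 0.629).

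**Figure D1:**
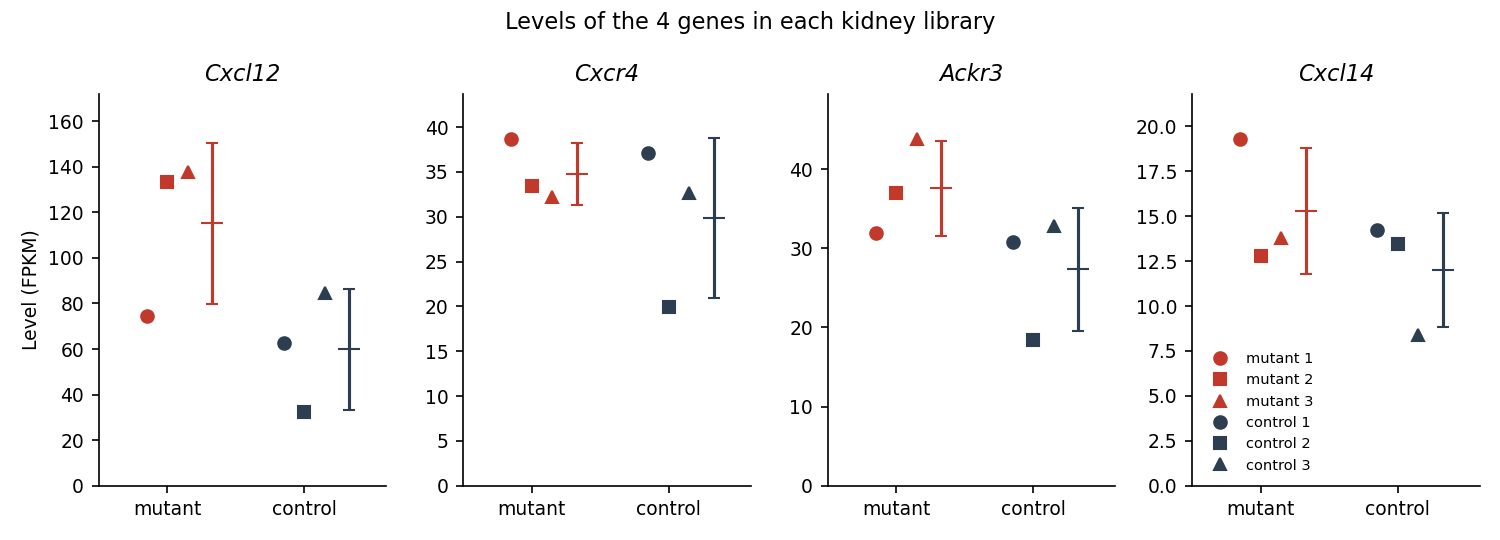
Levels of Cxcl12, Cxcr4, Ackr3 and Cxcl14 in FPKM (y axes, each from 0) in the 3 mutant and 3 control libraries, with 1 point per library and the mean ± SD beside them. Control 2 (dark square) is the lowest library for Cxcl12 (32.1), Cxcr4 (19.9) and Ackr3 (18.4), and the groups overlap for all 4 genes.

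None of the 4 genes passed limma over all genes, where 52 of 16933 genes passed (0.307%, with 0.219% higher and 0.0886% lower in mutants). In limma an unadjusted p under 0.05 was reached by 1 of the 4, Cxcl12, and by 9.63% of all genes tested (5.26% higher and 4.37% lower in mutants). The groups overlapped for all 4, while 16.7% of all genes tested had groups that did not overlap (7.57% with mutants above). In a fit with a term for sex, Cxcl12, Ackr3 and Cxcr4 passed, with log2 fold changes of 1.79, 1.02 and 0.80 (limma adjusted p = 0.0226, 0.0213 and 0.0318). In that fit 6.39% of all genes passed. Since control 2 was the only control with Ddx3y, the fit sets the mutants against that one library, and sex and the standing of control 2 cannot be told apart.

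**Figure D2:**
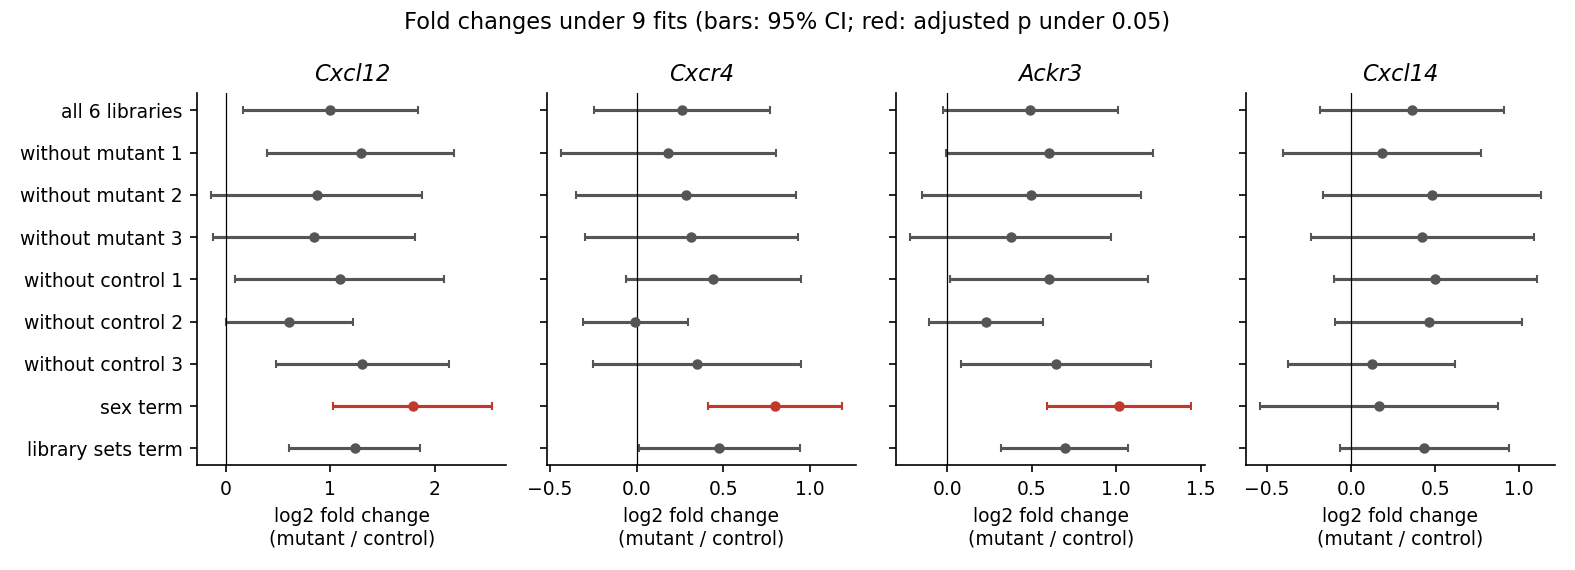
Log2 fold change of each gene, mutant over control (x axis), with its 95% confidence interval, under 9 limma fits (rows). The values of Cxcl12 run from 0.61 without control 2 to 1.79 with a sex term, and those of Cxcr4 from -0.0063 to 0.80 between the same fits.

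In the authors' deposited table, from DESeq2, 2 of the 4 genes were called higher in mutants, where 4.61% of the genes with an adjusted p were called in either direction with 3.07% higher and 1.54% lower. Cxcl12 had a log2 fold change of 1.257 (SE 0.26, adjusted p = 0.000164) and Ackr3 of 0.69 (SE 0.19, adjusted p = 0.014) in the authors' deposited table. The authors' deposited table gave Cxcr4 a log2 fold change of 0.47 (adjusted p = 0.268) and Cxcl14 of 0.45 (adjusted p = 0.362). These fold changes were larger than the ratio of the group means of the same libraries, whose log2 was 0.95 for Cxcl12, 0.46 for Ackr3, 0.22 for Cxcr4 and 0.35 for Cxcl14. The share of each library in the deposited fold changes was therefore measured by regressing them on the log2 normalized counts of the 6 libraries, over 9950 genes with at least 200 normalized counts in every library. The weights were 0.29, 0.28 and 0.44 for mutants 1 to 3, and 0.0042, -0.57 and -0.44 for controls 1 to 3. The fit left a residual SD of 0.011 on the log2 scale. Control 1 thus carried almost no weight, and control 2 the most of any library. The weight of control 2 was matched by the sum of mutants 1 and 2, and that of control 3 by mutant 3. Weights of this form are those of a linear model with a term for 3 sets of libraries: mutants 1 and 2 with control 2, mutant 3 with control 3, and control 1 alone. No source used here states such a term. With this term added, limma gave log2 fold changes of 1.23 for Cxcl12 (adjusted p = 0.0682), 0.69 for Ackr3 (adjusted p = 0.0837), 0.48 for Cxcr4 (adjusted p = 0.254) and 0.44 for Cxcl14 (adjusted p = 0.328). All 4 lay close to the authors' deposited values and none passed, while 1.27% of all genes passed in that fit.

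**Figure D3:**
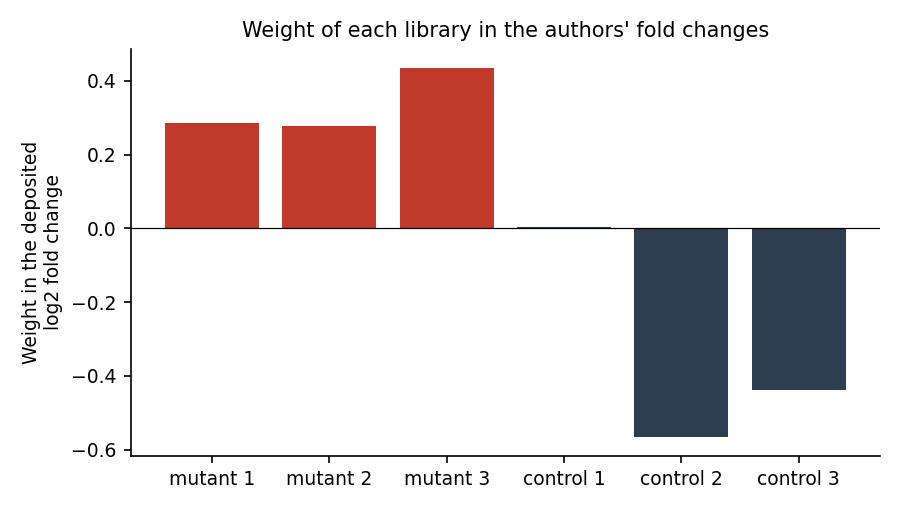
Weight of each library (bars) in the log2 fold changes of the authors' deposited table, from a regression over 9950 genes. Control 1 has a weight of 0.0042, against -0.57 and -0.44 for controls 2 and 3.

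Cxcl12 and Ackr3 varied together over the 6 libraries (Pearson r = 0.96 on log2 normalized counts), a description that rests on the same libraries and includes the low control 2. The same measure was 0.76 between Cxcr4 and Ackr3, 0.63 between Cxcl12 and Cxcr4, and -0.11 to 0.21 between Cxcl14 and the other 3 genes. The start regions of Cxcl12 and Ackr3 are shown because these are the members that varied together. Each runs from 250 bases before the RefSeq start to 50 bases from it, 5′ to 3′ on the gene's strand. Capitals mark matches on either strand to a GC box (GGGCGG, bound by Sp-family factors) or a TATA box (TATAAA).
Cxcl12, GRCm38.p6 chr6:117168285-117168584, plus strand: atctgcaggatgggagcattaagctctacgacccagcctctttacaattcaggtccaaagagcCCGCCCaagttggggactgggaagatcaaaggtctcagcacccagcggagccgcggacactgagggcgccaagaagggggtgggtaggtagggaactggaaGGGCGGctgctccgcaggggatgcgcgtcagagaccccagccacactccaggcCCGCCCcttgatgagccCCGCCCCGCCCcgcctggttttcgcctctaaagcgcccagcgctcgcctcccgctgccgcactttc
Ackr3, GRCm38.p6 chr1:90203730-90204029, plus strand: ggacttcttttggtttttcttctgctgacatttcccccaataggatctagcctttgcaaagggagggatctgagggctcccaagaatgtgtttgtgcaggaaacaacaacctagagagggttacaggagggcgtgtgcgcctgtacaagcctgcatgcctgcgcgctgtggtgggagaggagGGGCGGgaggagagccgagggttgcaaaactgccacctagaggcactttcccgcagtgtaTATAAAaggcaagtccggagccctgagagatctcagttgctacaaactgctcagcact

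The Cxcl12 window held 5 GC box matches and no TATA box, and was 64.7% G or C, with 20 CpG sites. The Ackr3 window held 1 GC box match and 1 TATA box match, and was 54.0% G or C, with 8 CpG sites. The Cxcr4 window held 3 GC box and 2 overlapping TATA box matches, and the Cxcl14 window 3 GC box matches and no TATA box. Over all 32851 RefSeq start windows of the same length, 35.7% held a GC box match and 13.6% a TATA box match. The Gli recognition sequence GACCACCCA, which mediates Hedgehog responses, had no exact match on either strand in any of the 4 windows, and 0.253% of all windows held one.

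Per length, Cxcl12 was the highest and Cxcl14 the lowest of the 4 genes in every library, while the receptors changed places. Ackr3 exceeded Cxcr4 in 2 of 3 mutants and in 1 of 3 controls. The log2 ratio of Cxcr4 to Ackr3 (FPKM + 0.1) was 0.28, -0.15 and -0.44 in mutants 1 to 3, against 0.27, 0.11 and -0.0070 in controls 1 to 3. The mean difference of that ratio was -0.23 (exact two-sided permutation p = 0.5, where 0.1 is the smallest p that 3 against 3 allows), and -0.24 without control 2. The log2 ratio of Cxcl12 to Cxcr4 was 1.68 ± 0.639 in mutants and 0.94 ± 0.379 in controls (SD, n = 3 each), with overlapping groups (difference 0.74, exact two-sided permutation p = 0.2; 0.61 without control 2). Among the 16933 genes tested, the mean FPKM of Cxcl12 exceeded 96.8% of genes in mutants and 93.0% in controls, and that of Cxcl14 exceeded 71.7% in mutants and 65.7% in controls.

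Markers of cells that can hold these transcripts were measured beside them. In whole kidneys, fewer cells of a type and less RNA per cell cannot be told apart. The 18 endothelial markers summed to 410 to 487 FPKM in mutants and 227 to 241 FPKM in controls, none at 0. Of the 18, 4 were called higher in limma, where 0.219% of all genes were. Without control 2 it was 8 of the 18, where 0.892% of all genes were called. By the authors' deposited table's adjusted p, 13 of the 18 were higher, where 3.07% of all genes with an adjusted p were. Endothelial markers with the smallest p were Emcn, a sialoglycoprotein of capillaries and veins (23.3 ± 2.23 FPKM in mutants, 9.38 ± 0.944 in controls, limma adjusted p = 0.0105), and the receptor gene Tie1 (22.1 ± 2.79 FPKM in mutants, 10.6 ± 0.444 in controls, limma adjusted p = 0.0175). Relative to the mean of that list, Cxcr4 was at 0.54, 0.20 and -0.091 in mutants 1 to 3, against 1.15, 0.38 and 0.95 in controls 1 to 3, on the log2 scale. All mutants lay below controls 1 and 3, and mutant 1 lay above control 2. The list's own log2 mean, set to 0 over the controls, was 0.71, 0.84 and 1.07 in mutants 1 to 3. It was 0.038, -0.091 and 0.053 in controls 1 to 3. A gene with no change of its own thus lies lower in mutants than in controls 1 and 3 on this measure. The share of all genes with this order was not counted. The difference of Cxcr4 from that list was -0.61 between the groups (exact two-sided permutation p = 0.2), and -0.84 without control 2. Ackr3 relative to the same list was at 1.02 to 1.12 in mutants, against 1.65, 1.03 and 1.72 in controls 1 to 3 (difference -0.38, exact two-sided permutation p = 0.3; -0.60 without control 2). Cxcl12 relative to the endothelial list was 3.53 ± 0.370 in mutants and 3.41 ± 0.638 in controls (SD, n = 3 each; difference 0.13, exact two-sided permutation p = 0.8), and -0.22 without control 2.

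The 16 cortical stroma markers, of the cells in which Cre is expressed and in which Cxcl12 is known to be made, summed to 797 to 1060 FPKM in mutants and 718 to 1185 FPKM in controls. None was at 0 and none passed limma over all genes, with or without control 2. The authors' deposited table called 4 higher and 1 lower, where 3.07% of all genes were called higher and 1.54% lower. The list's median log2 fold change was -0.14 (7 of 16 positive), and -0.45 without control 2 (5 of 16 positive). Relative to the mean of this list, Cxcl12 was at 1.51, 2.05 and 1.89 in mutants 1 to 3, against 0.73, 0.55 and 1.13 in controls 1 to 3, on the log2 scale. Every mutant lay above every control, as was the case for 4.92% of all genes tested on this measure. The difference of 1.01 had an exact two-sided permutation p of 0.1, the smallest possible, and was 0.89 without control 2. Cxcl14 relative to the same list overlapped, at -2.69 ± 0.545 in mutants and -3.06 ± 0.750 in controls (SD, n = 3 each; difference 0.37, exact two-sided permutation p = 0.5), and the difference was 0.74 without control 2. The list holds the receptor gene Pdgfra, at 50.6 ± 7.22 FPKM in mutants and 29.4 ± 8.81 FPKM in controls (limma adjusted p = 0.318). It also holds the retinoic acid synthesis gene Aldh1a2, at 185 ± 16.6 FPKM in mutants and 279 ± 46.9 FPKM in controls (limma adjusted p = 0.305). Its members thus did not move one way. The median log2 fold change was 0.85 for 12 smooth muscle and mural markers (8 positive, none called in limma). Without control 2 it was 0.63, with 3 called, where 0.892% of all genes were. The authors' deposited table called 5 of these markers higher and none lower. For 12 medullary and ureteric stroma markers the median was 0.29 (9 positive), and 0.40 without control 2, with 1 called. With control 2 kept, limma called 1 of them higher, where 0.219% of all genes were. This was Foxl1, at 29.2 ± 4.53 FPKM in mutants and 9.25 ± 1.99 FPKM in controls (limma adjusted p = 0.0147). The authors' deposited table called 4 of the medullary and ureteric markers higher and 1 lower. The level of Cxcl12 relative to either list was not tested.

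**Figure D4:**
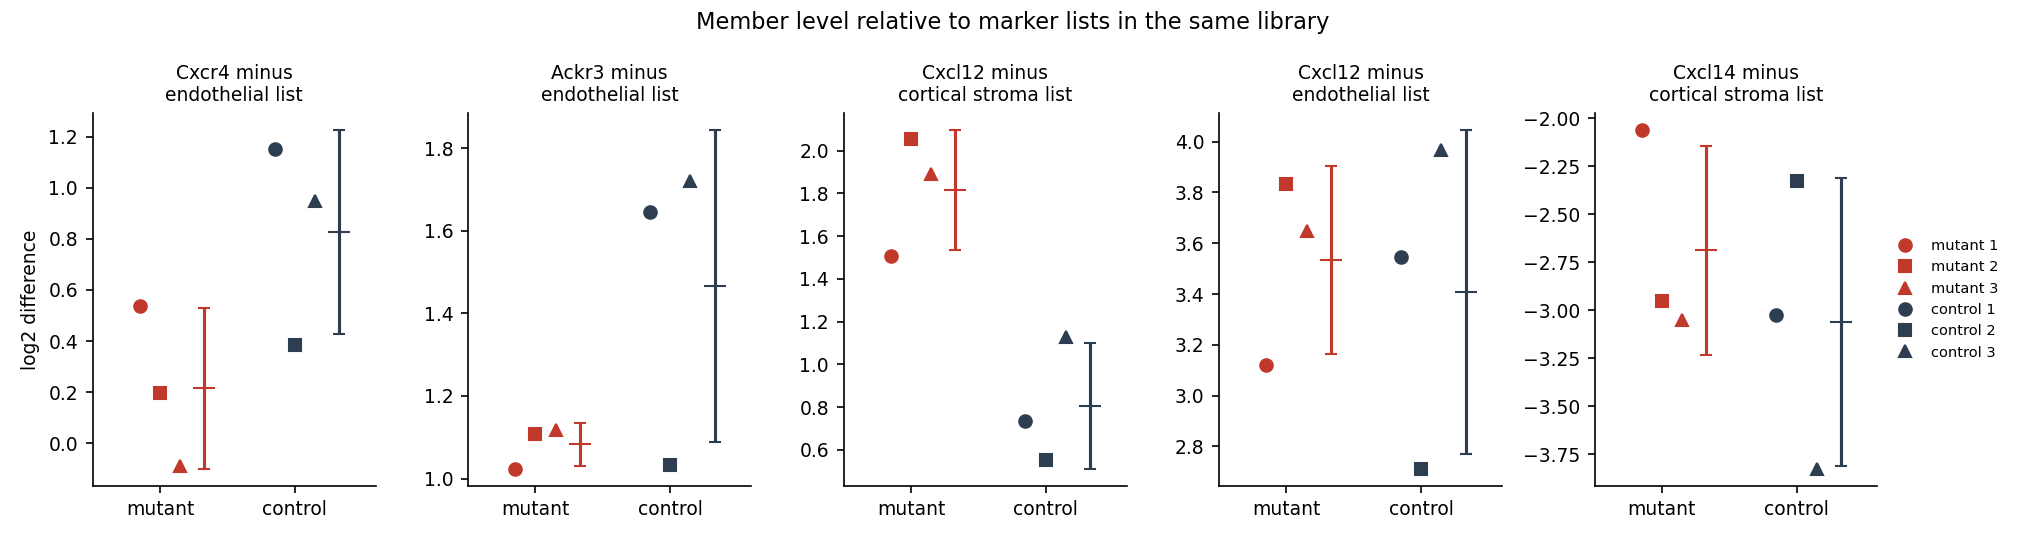
Log2 level of a gene minus the mean log2 level of a marker list in the same library (y axes, which do not start at 0), 1 point per library with mean ± SD. Cxcl12 minus the cortical stroma list is 1.51 to 2.05 in mutants and 0.55 to 1.13 in controls, and Cxcr4 minus the endothelial list is lower in all mutants than in controls 1 and 3. The endothelial list is itself higher in mutants.

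Other cells that use these receptors were measured by their markers. The 15 macrophage and leukocyte markers all had positive fold changes (median log2 0.70). They summed to 43.2 to 64.6 FPKM in mutants and 32.0 to 40.1 FPKM in controls. None was called in limma, and 7 were higher at an unadjusted p under 0.05, where 5.26% of all genes were. The macrophage and leukocyte median was 0.86 without control 2, with 14 of 15 positive and none called. The 10 skeletal muscle markers summed to 3.90 to 6.01 FPKM in mutants and 25.6 to 43.8 FPKM in controls. Of the 10, 3 were at 0 in some library. Of the 7 tested, 5 were called lower, where 0.0886% of all genes were. Without control 2, 5 skeletal muscle markers were tested and 4 were called lower, where 0.892% of all genes were called in either direction. The 12 arterial and tip endothelial markers summed to 93.7 to 94.9 FPKM in mutants and 65.0 to 85.1 FPKM in controls. None of the 12 was called, and 6 were higher at an unadjusted p under 0.05, where 5.26% of all genes were. Without control 2, 2 of these 12 were called, where 0.892% of all genes were. With control 2 kept, the gap junction gene Gja4 was at 12.9 ± 1.96 FPKM in mutants and 5.94 ± 0.738 FPKM in controls (limma adjusted p = 0.0539). The Tie2 ligand gene Angpt2 was at 7.62 ± 2.59 FPKM in mutants and 2.29 ± 0.514 FPKM in controls (limma adjusted p = 0.0659). Their part in the levels of the 4 genes was not tested.

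The remaining chemokine ligands were low beside Cxcl12. Of 36 listed ligands the table held 23, and 13 passed the filter. None of the 13 passed limma or was called in the authors' deposited table. In limma 3 reached an unadjusted p under 0.05, as did 9.63% of all genes tested. Fold changes were positive for 10 of the 13, and their median was 0.34 on the log2 scale, where 49.1% of all genes were positive and the median was -0.0074. The ligands had a median of 0.28 without control 2, with 9 of 13 positive and none called. Ccl11, which attracts eosinophils, was at 7.20, 4.77 and 7.52 FPKM in mutants 1 to 3, against 2.37, 3.06 and 4.25 FPKM in controls 1 to 3. All mutants lay above all controls, as for 7.57% of all genes tested, with 1.01 on the log2 scale between the groups (limma adjusted p = 0.321). Pf4, a platelet and megakaryocyte chemokine, was at 5.97, 4.96 and 8.04 FPKM in mutants 1 to 3, against 2.42, 4.48 and 3.18 FPKM in controls 1 to 3 (log2 fold change 0.91, limma adjusted p = 0.441). The monocyte attractant Ccl2 was near the floor, at 0.609 ± 0.124 FPKM in mutants and 0.292 ± 0.0685 FPKM in controls, from 83 reads in all. The skin and epithelial chemokine Ccl27a was at 13.2 ± 2.51 FPKM in mutants and 9.65 ± 2.40 FPKM in controls (limma adjusted p = 0.552).

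Of 22 further chemokine receptors listed, the table held 15 and 8 were tested, none of them called in limma or in the authors' deposited table. Their median log2 fold change was 0.47 and 1 of the 8 had an unadjusted p under 0.05, as did 9.63% of all genes tested. The receptors' median was 0.38 without control 2, with 6 of 8 positive and none called. Gpr182, an atypical chemokine receptor of vessel lining cells, was at 1.64, 0.907 and 1.99 FPKM in mutants 1 to 3, against 0.510, 0.999 and 0.772 FPKM in controls 1 to 3 (difference 0.96 on the log2 scale, limma adjusted p = 0.471). The atypical receptors Ackr4 (0.370 ± 0.146 FPKM in mutants, 0.567 ± 0.0836 in controls) and Ackr1 (0.785 ± 0.275 FPKM in mutants, 0.486 ± 0.145 in controls) were far below Ackr3. The monocyte receptor Ccr2 was at 0.0901 ± 0.0265 FPKM in mutants and 0.0540 ± 0.0469 FPKM in controls.

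The signalling machinery below the receptors did not move one way, and the balance of signs shifted with control 2. Of 22 listed transducers all were tested, none was called in limma or in the authors' deposited table, 10 had positive fold changes and the median was -0.022. The median of all genes was -0.0074. Without control 2, 16 of the 22 were positive, with a median of 0.073, against -0.016 over all genes. The inhibitory G protein subunit Gnai2 was abundant, at 249 ± 12.1 FPKM in mutants and 221 ± 11.2 FPKM in controls (limma adjusted p = 0.633). Arrb1, one of the arrestins that Ackr3 recruits, was at 7.75, 9.46 and 8.51 FPKM in mutants 1 to 3, against 4.36, 7.96 and 4.73 FPKM in controls 1 to 3. Here control 2 was the control nearest the mutants. Arrb1 had a log2 fold change of 0.64 (limma adjusted p = 0.436), and 0.91 without control 2 (limma adjusted p = 0.0172), where it was the single gene of the list to pass and 0.892% of all genes passed. The guanine nucleotide exchange partners Elmo1 (3.20 ± 0.507 FPKM in mutants, 2.39 ± 0.602 in controls) and Dock2 (0.219 ± 0.0237 FPKM in mutants, 0.141 ± 0.0343 in controls) did not pass, nor did the kinase subunit Pik3cg (0.603 ± 0.0522 FPKM in mutants, 0.417 ± 0.239 in controls).

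Among 16 listed proteases, retention partners and transcriptional regulators of Cxcl12, 14 were tested and none was called in limma, with a median log2 fold change of 0.20, and 0.079 without control 2, where none was called. The authors' deposited table called 3 higher, Mmp2, Mmp14 and the matrix proteoglycan gene Hspg2, and 1 lower, Hif1a. Over all genes it called 3.07% higher and 1.54% lower. Mmp2, a metalloproteinase that cleaves Cxcl12, was at 68.0, 98.9 and 101 FPKM in mutants 1 to 3, against 70.3, 30.6 and 74.4 FPKM in controls 1 to 3. As with Cxcl12 and Ackr3, control 2 was lowest and mutants 2 and 3 highest (difference 0.70 on the log2 scale in limma, adjusted p = 0.541, and 1.01 with adjusted p = 0.00201 in the authors' deposited table). Mmp9, a related protease, was at 0.761, 0.377 and 0.724 FPKM in mutants 1 to 3, against 0.0433, 0.201 and 0.141 FPKM in controls 1 to 3, from 209 reads in all (difference 2.30 on the log2 scale, limma adjusted p = 0.211). The hypoxia factor Hif1a, which can raise transcription of Cxcl12, was at 20.5 ± 3.42 FPKM in mutants and 28.8 ± 9.45 FPKM in controls (limma adjusted p = 0.563; log2 fold change -0.72 with adjusted p = 0.0211 in the authors' deposited table). Its relative Epas1 was at 7.21 ± 1.31 FPKM in mutants and 4.96 ± 1.81 FPKM in controls (limma adjusted p = 0.519). Foxc1, which maintains Cxcl12 in stromal cells of mouse bone marrow, was at 24.1 ± 4.22 FPKM in mutants and 25.5 ± 6.06 FPKM in controls (log2 fold change -0.063, limma adjusted p = 0.921).

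Of 12 further ligands and partner receptors of Cxcr4 and Ackr3, all were tested and none was called in limma. An unadjusted p under 0.05 in limma was reached by 2 of them, and by 9.63% of all genes tested. The authors' deposited table called 2 higher, Cd44 and Ramp2, where 3.07% of all genes with an adjusted p were. The list's median log2 fold change was 0.30, and 0.17 without control 2, where none was called. Cd74, the cell surface partner through which the cytokine Mif acts with Cxcr4, was at 4.23, 3.55 and 2.43 FPKM in mutants 1 to 3, against 1.79, 0.934 and 1.67 FPKM in controls 1 to 3 (difference 1.22 on the log2 scale, limma adjusted p = 0.305). Cd44, its co-receptor, was at 1.97, 2.12 and 3.28 FPKM in mutants 1 to 3, against 1.57, 1.05 and 1.41 FPKM in controls 1 to 3 (difference 0.85 on the log2 scale, limma adjusted p = 0.335, against 0.00587 in the authors' deposited table). For both genes every mutant lay above every control, as was the case for 7.57% of all genes tested. The adrenomedullin receptor parts Ramp2 (72.1 ± 10.2 FPKM in mutants, 55.8 ± 15.5 in controls) and Calcrl (13.3 ± 1.52 FPKM in mutants, 10.8 ± 2.41 in controls) did not pass (limma adjusted p = 0.557 and 0.579), while the authors' deposited table gave Ramp2 an adjusted p = 0.0309.

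**Figure D5:**
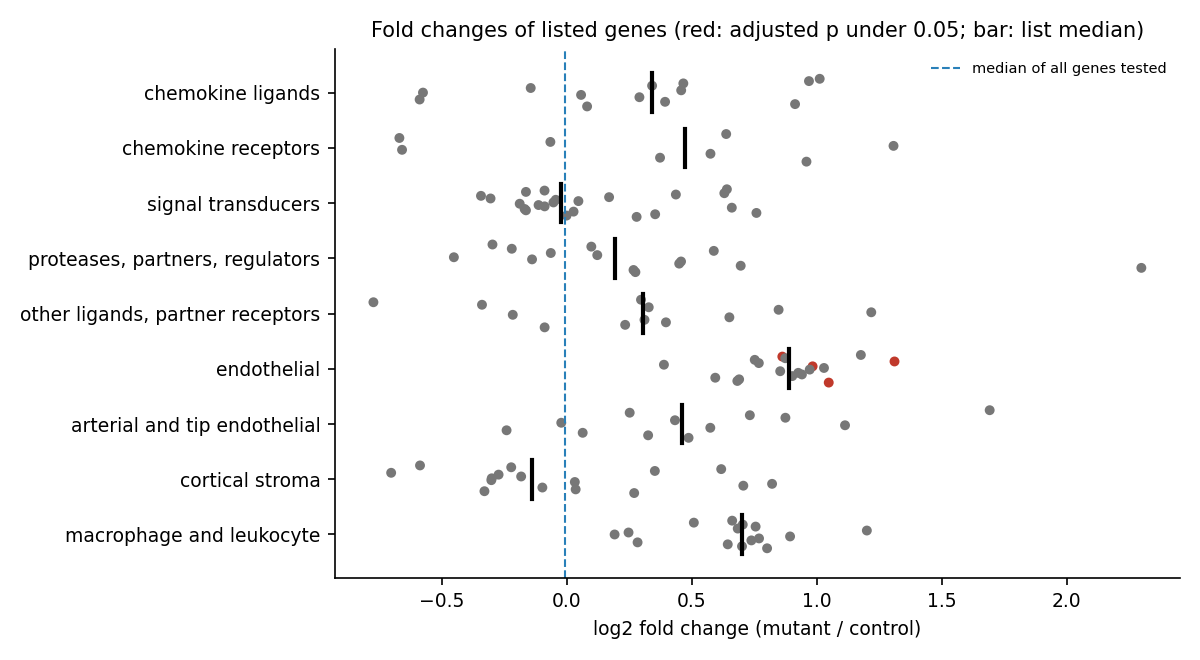
Log2 fold change, mutant over control (x axis), of each tested gene (points) in 9 lists (rows), with the list's median as a black bar and the median of all genes (-0.0074) as a dashed line. The chemokine ligands have a median of 0.34, the signal transducers of -0.022, and red points, genes that passed, appear in the endothelial list alone.

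The genes whose pattern over the 6 libraries was most like each member were found among 12208 tested genes with a mean of at least 50 normalized counts. With so many genes and 6 libraries, high values arise readily, and they are given as a description. Ackr3 was closest to the fibrillar collagen genes Col1a2 (Pearson r = 0.9996) and Col1a1 (0.999), followed by the matrix protein gene Sparc (0.997), the procollagen protease gene Adamts2 (0.996) and the forkhead gene Foxp2 (0.996). Col1a2 was at 364 ± 133 FPKM in mutants and 179 ± 99.0 FPKM in controls, with a log2 fold change of 1.17 (limma adjusted p = 0.502). Cxcl12 was closest to Nyap1 (0.992), Zfp991 (0.987), the collagen glycosyltransferase gene Colgalt2 (0.986), the transcription factor gene Maf (0.985) and Gpr85 (0.984). Cxcr4 was closest to Letm2 (0.990), Npff (0.988), Gpr108 (0.987), Tmem101 (0.986) and Pdcd5 (0.985), and Cxcl14 to Rapgef4 (0.997), Zfp52 (0.990), Mok (0.987), Faah (0.984) and Sgsm3 (0.976). None of these 20 genes passed limma.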

How the data were processed

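Messenger RNA libraries were made from whole kidneys, per the labels' protocols. The mm10 build and the tools DESeq2, HTSeq 0.6.1p2, STAR 2.6.0c and Trim Galore were named, with no role or order, per the submitters' processing notes. No source used here gives strandedness of counting, and no annotated gene overlapped any of the 4. The deposited library columns were FPKM made by the authors, a unit taken from the values. Per the file headers, the authors also gave a mean normalized signal, a log2 fold change, a test score (Wald statistic), and a p-value both raw and adjusted. FPKM multiplied by each gene's mean normalized signal over its mean FPKM gave normalized counts, and 100% of 134364 values were whole reads to within 1e-06. limma 3.58.1 (R 4.3.3) with an intensity trend was run on log2(normalized count + 1), which understates changes of low genes, for the 16933 genes that reached 10 normalized counts in no fewer than 3 libraries. Adjusted p (Benjamini-Hochberg) under 0.05 was a call. The fit was tested on simulated data. Alternatives were other pseudocounts, filters and scalings, voom on the recovered reads, library weights, terms for sex, replicate number or library sets, and each library left out. Positions came from GENCODE M21 (99.8% of identifiers matched) and start regions from RefSeq (4 of 4 genes matched). Members and lists were chosen with earlier results of these data known. Named genes were the 4 members, up to 4 of each list by smallest p, and the 5 closest in pattern to each member. Foxc1, Gnai2, Gnai1, Hspg2 and Mmp14 were outside that rule and named after their values were seen. Replicates are taken to be separate embryos, as the design text describes. That each library is 1 embryo was not tested.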

Additional observations from a re-analysis of the deposited data

How the results depend on the processing

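Cxcl12, Ackr3 and Cxcl14 kept a positive fold change in all 16 alternatives, and Cxcr4 in all but 1. The sex term brought Cxcl12 (1.79), Ackr3 (1.02) and Cxcr4 (0.80) past the threshold, and under the other alternatives none of the 4 passed. Leaving out 1 library at a time gave 0.61 to 1.31 for Cxcl12, 0.23 to 0.65 for Ackr3, 0.12 to 0.50 for Cxcl14 and -0.0063 to 0.44 for Cxcr4, whose sign turned without control 2. Genes called numbered 52, and 6 to 149 without 1 library (8, 6 and 7 without mutants 1 to 3, and 15, 149 and 19 without controls 1 to 3). They numbered 1082 with the sex term, 380 with library weights and 215 with the library sets term, which was chosen after seeing the data. With the replicate block 17 were called. Deviations of same-numbered libraries correlated at 0.00081, -0.098 and 0.31, so the numbers were not taken as pairs. Mutant 1 correlated best with control 2 (0.23) and mutant 2 with control 3 (0.15), and only mutant 3 with its own number. The block changed no call of the 4 genes (limma adjusted p = 0.355 for Cxcl12). Signal transducers called were 0, and 1 with library weights (Arrb1), 1 with the sex term (Gnai1) and 0 to 1 without 1 library (Arrb1, without control 2). Cxcl12 proteases, partners and regulators called were 1 with library weights (Mmp9) and 3 with the sex term (Hspg2, Mmp14, Mmp2), and further ligands and partner receptors 2 with the sex term (Calcrl, Cd74). The cause was not tested, beyond the sex term's resting on control 2. The ratios moved by less than the larger group's SD in every alternative run, though without 1 library the difference turned sign for Cxcl12 against the endothelial list (-0.22 to 0.40) and Cxcl14 against the cortical stroma list (-0.012 to 0.74).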
